A study of Mus musculus with 2 samples.

Results

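The cells described here were tumor-derived cells with little CD45 (Ptprc) RNA that carried RNA of Hmga2, an architectural chromatin protein of embryonic and transformed cells. They were chosen by counts of unique molecular identifiers (UMIs, each standing for 1 captured RNA molecule). A cell was a member with at most 1 UMI of Ptprc, at least 1 UMI of Hmga2, at most 1 UMI of Csf1r (the macrophage growth factor receptor) and 0 UMIs of Cd3e (a T cell receptor subunit). The rule took 686 of 10100 cells, with 583 of 4524 in the WT library and 103 of 5576 in the Siah2-/- library.

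Both libraries came from YUMMER1.7 tumors, a mouse melanoma line with an activated Braf allele and without Cdkn2a, grown for 11 days in male C57BL/6 mice aged 8 weeks. The hosts were WT or Siah2-/-, lacking a RING finger ubiquitin ligase in every host cell. The injected line was not Siah2-deficient, so cells of the line carried the same genotype in both hosts. Tumors were pooled within a genotype, CD45+ cells were sorted, and a smaller part of sorted CD45- cells was added back (1 per 5 CD45+ cells by the protocol, 1000 per 20000 by the design text). Each genotype gave 1 droplet library (10x Genomics 3′ v2) on its own lane, so genotype, tumor pool, suspension, library and lane cannot be told apart, and no test between genotypes was possible. The intervals in parentheses are exact 95% intervals and cover counting error only.

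Melanocytes descend from the neural crest, an embryonic cell population that also yields glia and much of the mesenchyme of the head. Mitf, with Sox10 and Pax3 upstream of it, switches on the pigment enzymes in the melanocyte lineage. Melanoma cells can lose that pigment program and take on an undifferentiated, mesenchymal state in which crest factors, AP-1 factors such as Fosl1 and matrix genes are active.

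The members were the deeper cells of each library. The median was 23861 UMIs and 4590 genes per member in WT and 26061 UMIs and 4940 genes in Siah2-/-, against 11425 and 8683 UMIs over all cells. They held 23.5% of the WT and 4.37% of the Siah2-/- UMIs of the cells kept. Of 34 barcodes that occurred in both libraries, 1 was a member in both, and 5 member barcodes equalled a barcode of any cell in the other library.

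Hmga2 (chr10:120361275-120476469, minus strand, GRCm38) chose the cells, so its level is a description only. The median member had 4 Hmga2 UMIs in WT and 3 in Siah2-/-, and the highest had 53 and 32. At the threshold, 115 WT and 24 Siah2-/- members had exactly 1 Hmga2 UMI, while 231 and 213 cells met every other condition with 0. Just outside the other limits lay 23 and 9 cells with 2 Ptprc UMIs, and 9 and 3 cells with 2 Csf1r UMIs. Inside them, 56 and 26 members had 1 Ptprc UMI and 82 and 26 had 1 Csf1r UMI.

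The other genes proposed as markers were present in both libraries. Levels are given as CPM, the UMIs of a gene scaled to 1000000 UMIs of the summed members of a library, and since the chemistry counts each molecule once near its 3′ end, they were not divided by gene length. Timp1, an inhibitor of matrix metalloproteinases (chrX:20870166-20874735, plus strand, within Syn1 on the other strand), stood at 257 CPM (249 to 265) in WT and 192 CPM (175 to 210) in Siah2-/-. It had a UMI in 93.7% and 94.2% of members. In cells with macrophage counts (at least 2 UMIs each of Ptprc and Csf1r and 0 of Cd3e; 1378 WT and 1471 Siah2-/- cells) Timp1 was at 10.8 and 17.2 CPM.

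Fosl1, an AP-1 subunit downstream of MAPK signalling (chr19:5447547-5455946, plus strand), was at 83.8 CPM (79.3 to 88.5) in WT and 23.2 CPM (17.7 to 29.9) in Siah2-/- members, with a UMI in 37.4% and 28.2% of them. Tnfrsf12a, the receptor of the cytokine TWEAK (chr17:23675445-23677468, minus strand), was at 166 CPM (160 to 173) and 38.7 CPM (31.5 to 47.0), in 49.2% and 35.9% of members. The macrophage gate had 1.90 and 1.83 CPM of Fosl1 and 25.8 and 24.0 CPM of Tnfrsf12a. At least 1 of Fosl1, Timp1 and Tnfrsf12a was found in 95.5% of WT and 95.1% of Siah2-/- members, but all 3 together in 177 of 583 (30.4%) and 16 of 103 (15.5%). A Timp1 UMI was thus found in nearly every member. Fosl1 and Tnfrsf12a were found in fewer members than Pax3, which had a lower level in WT (65.8 CPM) and a UMI in 78.0% of members, so their RNA was spread less evenly over the WT cells. At 60 Fosl1 UMIs over 103 Siah2-/- members, a member without one cannot be called negative.

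The pigment program was absent or near the detection limit. Of 15 melanocyte genes, 9 had 0 UMIs in the members of both libraries, among them Tyr, Tyrp1, Mlana, Mc1r and Slc45a2, the genes of melanin synthesis and the melanosome. A count of 0 allowed up to 0.197 CPM in WT and 1.16 CPM in Siah2-/- (a one-sided limit of 3 UMIs over the members of the library). Pmel, the scaffold of the melanosome fibrils, had 6 and 2 UMIs in all members, and Dct, a melanin enzyme, had 0 and 2. Any UMI of Tyrp1, Dct, Pmel or Mlana was present in 6 of 583 WT (1.03%) and 4 of 103 Siah2-/- members (3.88%).

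Mitf, the master regulator of melanocytes, was at 3.61 CPM (2.72 to 4.70) in WT and 6.19 CPM (3.54 to 10.1) in Siah2-/- members. The macrophage gate, whose cells also use Mitf, had 8.16 and 8.22 CPM. A single melanocyte gene reached 10 CPM in both libraries. It was Slc24a5, a melanosomal cation exchanger, at 21.1 and 31.7 CPM. Its 3′ end on chr2:125068124-125088677 (plus strand) overlaps Myef2 on the other strand, and how its reads were shared between them was not tested.

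Neural crest genes were present in part. Of 15 genes, 6 reached 10 CPM in both libraries. Tfap2b, an AP-2 factor of crest cells (chr1:19208914-19238576, plus strand), was at 105 CPM (100 to 111) and 106 CPM (93.8 to 119), with a UMI in 86.3% and 87.4% of members. Pax3, a paired box factor of crest and melanoblasts (chr1:78101267-78197134, minus strand), was at 65.8 CPM (61.8 to 70.0) and 78.9 CPM (68.5 to 90.5), in 78.0% and 78.6% of members. In the macrophage gate Tfap2b was at 2.14 and 0.791 CPM and Pax3 at 1.55 and 0.365 CPM.

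Tfap2a, a second AP-2 factor (chr13:40715302-40738376, minus strand), stood at 34.5 CPM in WT and 49.1 CPM in Siah2-/- members. Sox2, a factor of neural progenitors and Schwann cell precursors, was at 23.6 and 38.3 CPM, and S100b, a calcium-binding protein of glia, at 11.4 and 17 CPM. Gfra2, a neurturin co-receptor, was at 34.3 and 30.2 CPM. Sox10, Foxd3, Ngfr, Erbb3 and Ednrb, which mark migrating crest, glia and melanoblasts, had 0 UMIs in every member of both libraries. Pax3 was thus present without Sox10 and with little Mitf.

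The crest factors marked the members as a whole rather than a few cells. A UMI of Pax3, Tfap2a or Tfap2b was found in 566 of 583 WT members (97.1%, 95.4 to 98.3) and 100 of 103 Siah2-/- members (97.1%, 91.7 to 99.4). Nearly the same share, 96.9% and 97.1%, held one of them together with Prrx1. After each cell was thinned to 5000 UMIs, 61.6% and 64.1% of members still held one of the 3 factors. For Tfap2b alone the thinned share was 40.0% and 43.7%, against 0.435% and 0.273% in the macrophage gate, where 6 Siah2-/- cells were too shallow to thin.

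Mesenchymal genes were widely present, with 11 of 15 at 10 CPM or more in both libraries. Vim, the mesenchymal intermediate filament, was at 4784 and 5819 CPM, Sparc, a secreted collagen-binding protein, at 1367 and 1336 CPM, and Fn1, fibronectin, at 636 and 753 CPM. Prrx1, a homeobox factor of limb and facial mesenchyme (chr1:163245119-163313710, minus strand), was at 349 CPM (340 to 359) and 412 CPM (388 to 437), in 98.3% and 97.1% of members, against 8.21 and 2.92 CPM in the macrophage gate. Prrx1 was therefore detected in almost every member of both libraries.

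Transcription factors of epithelial-mesenchymal transition were also present. Twist1 was at 52.9 and 76.2 CPM, Snai1 at 45.2 and 59.6 CPM and Zeb1 at 38.3 and 41.8 CPM. Cdh2 (N-cadherin), which replaces E-cadherin in mesenchymal cells, was at 29.6 and 30.2 CPM, whereas Snai2, an early crest factor, was at 3.15 and 3.09 CPM and Cdh11 had 0 and 2 UMIs. Some list members were no mark of these cells, since Zeb2 (81.4 and 102 CPM) was higher in the macrophage gate (216 and 239 CPM), as was Tgfbi (354 and 489 against 1740 and 2077 CPM).

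Genes used to describe undifferentiated melanoma were present in part, with 5 of 10 at 10 CPM or more in both libraries. Axl, a receptor tyrosine kinase, was at 171 and 169 CPM, Sox9, a crest and cartilage factor, at 131 and 150 CPM, and Wnt5a, a non-canonical Wnt ligand, at 41.2 and 59.2 CPM. Cd44 and Tead1 were at 116 and 114 CPM and at 43.9 and 46.8 CPM. Egfr (4.33 and 1.55 CPM), Nt5e (0.328 and 0.774 CPM), Loxl2, Tnc and Tead4 stayed under 10 CPM. Axl and Cd44 were also present in macrophage-gate cells, at 203 and 125 CPM and 118 and 173 CPM, but Sox9 was there at 2.98 and 1.10 CPM.

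Fibroblast genes were also among those present, with 10 of 14 at 10 CPM or more. Col1a2 and Col3a1, chains of fibrillar collagen, were at 1338 and 1658 CPM and at 731 and 1154 CPM. Dcn, a small proteoglycan, was at 229 and 444 CPM, and the platelet-derived growth factor receptors Pdgfra and Pdgfrb were at 67.1 and 92.5 CPM and at 78.4 and 82.4 CPM. Fbln1 and Mfap5, matrix genes of dermal and adventitial fibroblasts, were nearly missing, with 2 and 0 UMIs and 4 and 0 UMIs. The melanocyte, crest and mesenchymal lists thus placed the members with the AP-2, Pax3 and Prrx1 factors and the mesenchymal matrix genes, and not with pigmented melanocytes or Sox10-positive glia.

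Other lineages were at low level. No gene of 11 endothelial and 8 muscle genes reached 10 CPM in both libraries, 1 of 10 pericyte genes did (Cspg4, a melanoma-associated proteoglycan, at 20.6 and 17.8 CPM) and 1 of 9 keratinocyte genes (Krt10, at 27.6 and 27.9 CPM). Against the macrophage gate, the median log2 ratio of the mesenchymal genes was 2.74 in WT and 3.04 in Siah2-/-, with 7 of 11 at least 2-fold higher and 3 lower in both. Over all 7730 genes compared, 15% were at least 2-fold higher and 16.1% lower in both libraries.

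**Figure D1:**
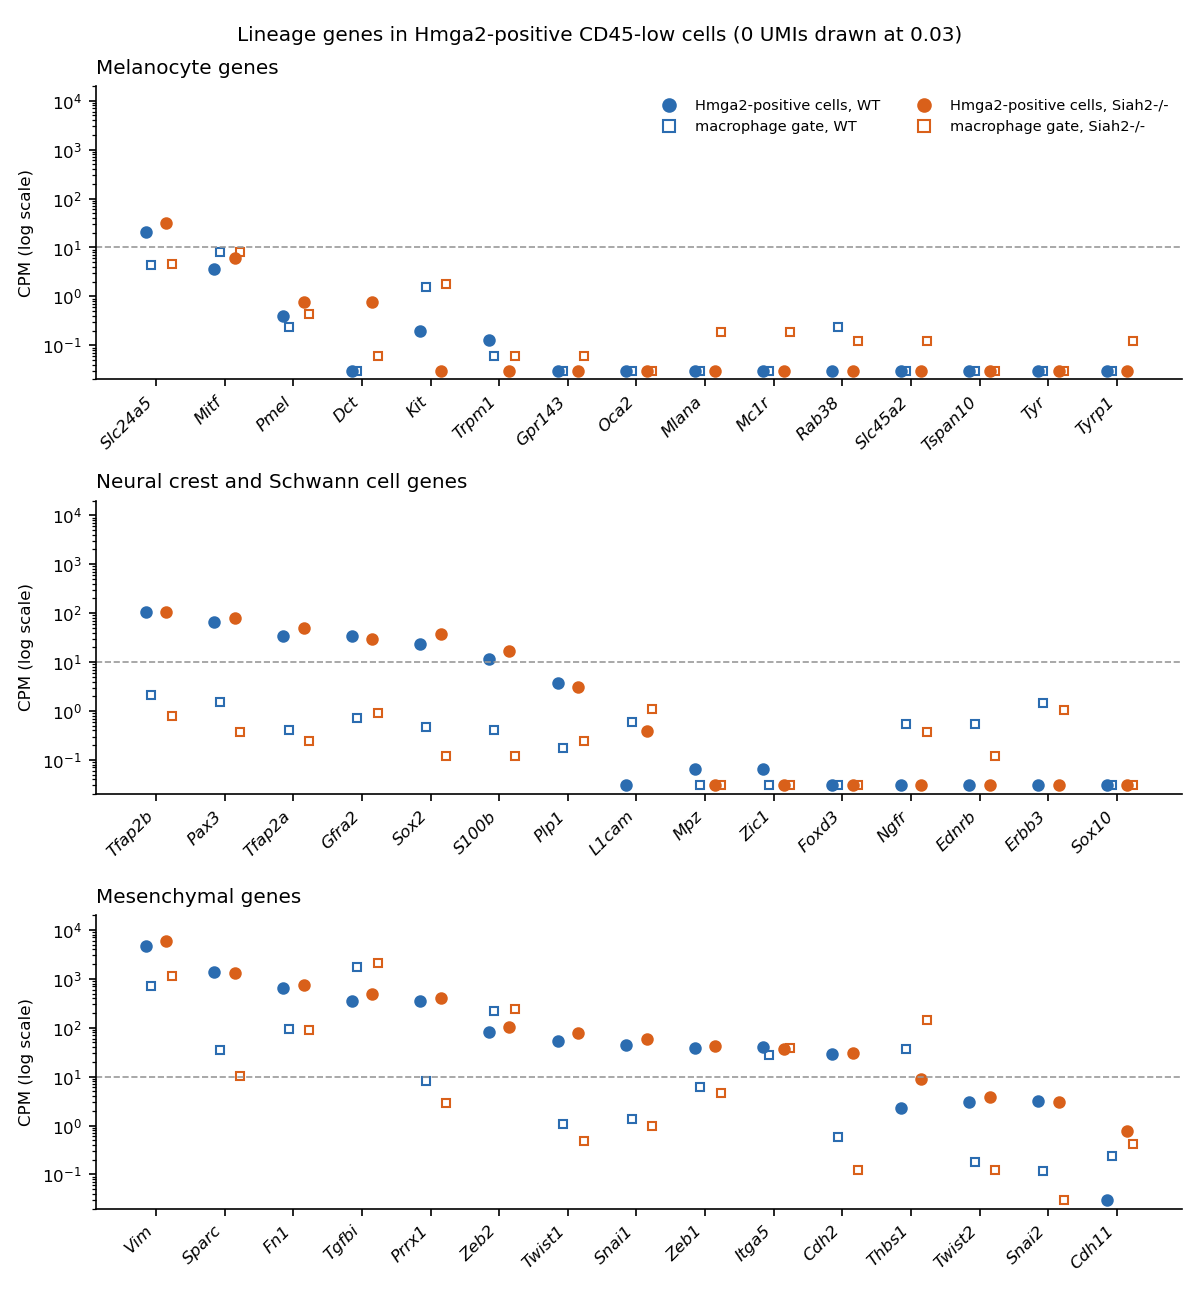
Levels of melanocyte, neural crest and mesenchymal genes in CPM on a log scale, in the summed Hmga2-positive cells (filled circles) and macrophage-gate cells (open squares) of the WT and Siah2-/- libraries, with a dashed line at 10 CPM and genes without a UMI drawn at 0.03. Tyr, Tyrp1, Mlana and Sox10 lie at the bottom of the scale, Slc24a5 lies above the line (21.1 and 31.7 CPM), and Tfap2b (105 and 106 CPM), Pax3 and Prrx1 lie well above the line in members of both libraries and under it in the macrophage gate.

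The lesions of the line could not be read from these counts. Cdkn2a (chr4:89274471-89294653, minus strand) was at 13.8 and 15.1 CPM in members and at 0.952 and 0.426 CPM in the macrophage gate, although the line is described as Cdkn2a-/-. A 3′ count does not show whether the deleted exons are present, so it does not check the origin of the cells, and Braf (7.22 and 6.58 CPM) carries no allele information here. Siah2 itself was at 8.66 and 10.1 CPM in members and at 12.6 and 10.3 CPM in the macrophage gate. Cells of the line were not Siah2-deficient in either host. In host cells a 3′ count does not show whether deleted exons are present, so neither value checks a label.

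Of 4 Y-linked genes, 1 differed widely between the members and the leukocytes. Eif2s3y, a translation factor subunit, had 4 UMIs in the 583 WT members (0.263 CPM) and 15 UMIs in the 103 Siah2-/- members (5.80 CPM). It stood at 38.2 and 60.5 CPM in the macrophage gate and at 43.8 and 63.1 CPM in empty droplets, which hold free RNA. Ddx3y, a neighbouring Y-linked helicase gene, was at 23.6 and 30.6 CPM in members and at 26.3 and 38 CPM in the macrophage gate. Kdm5d, a histone demethylase gene, was at 2.89 and 5.42 CPM against 2.86 and 4.63 CPM, and Uty, a related Y-linked gene, at 3.81 and 4.26 CPM against 4.70 and 6.15 CPM. Eif2s3y was thus the exception among the 4.

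Among genes that embryonic and transformed cells share, Hmga1, the paralog of Hmga2, was at 224 and 111 CPM and the RNA-binding protein gene Igf2bp2 at 36.9 and 38.7 CPM. Lin28a, Lin28b, Igf2 and Dlk1 had 0 UMIs. Secreted products were led by Spp1 (osteopontin), at 4065 and 6264 CPM, against 970 and 778 CPM in empty droplets, and Ccl2, a monocyte chemokine, at 354 and 614 CPM. Il33, an alarmin, was at 84.0 and 118 CPM, Tgfb3 at 86.8 and 94.4 CPM and Csf1, the ligand of Csf1r, at 67.7 and 62.7 CPM. Transcriptional targets of MAPK signalling were present at 10 CPM or more in 14 of 18 cases, for example Dusp6 (107 and 121 CPM), Phlda1 (371 and 540 CPM) and Etv1 (122 and 171 CPM).

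The members made up 12.9% (11.9 to 13.9) of the WT cells and 1.85% (1.51 to 2.24) of the Siah2-/- cells. The log2 ratio of the shares was -2.80 (-3.12 to -2.5). The amount of CD45- cells added back sets such a share, and whether the mixture was the same in both suspensions is not known here. With every barcode of 1000 UMIs or more in place of the cells kept, the shares were 7.03% and 2.48% and the log2 ratio -1.5.

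The authors' filter on cells reached the members more than other cells. At or above the lowest UMI count of the table lay 4768 WT and 5886 Siah2-/- barcodes, of which 244 and 310 were not kept. The filter, meant to take out low-quality cells and doublets, removed the cells with the fewest and the most genes in each library, and the highest number of genes left in the table was 6187 in WT and 5432 in Siah2-/-. Of the 97 WT and 117 Siah2-/- barcodes above those limits, 63 (64.9%) and 49 (41.9%) met the rule for members. With 5 and 12 further barcodes over 10% mitochondrial UMIs, the filter left out 68 of 651 WT (10.4%) and 61 of 164 Siah2-/- barcodes (37.2%) that met the rule at the table's lowest UMI count or above. With them, the shares were 13.7% and 2.79% and the log2 ratio -2.29.

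Of the barcodes left out, 67 in WT and 58 in Siah2-/- also had at least 3 UMIs of Pax3, Tfap2b and Prrx1 together, and their median was 58846 and 37152 UMIs. Doublets cannot be told apart from large cells among them. The counts of genes past 2-fold and the list medians below are therefore also given with these barcodes where that moves them. So are the ratios of the marker genes and of some genes with the lowest ratios. Ratios of other single genes, among them Ccnd1, Hbegf and Areg, are given for the cells of the table only. Whether these barcodes move those ratios is not shown.

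**Figure D2:**
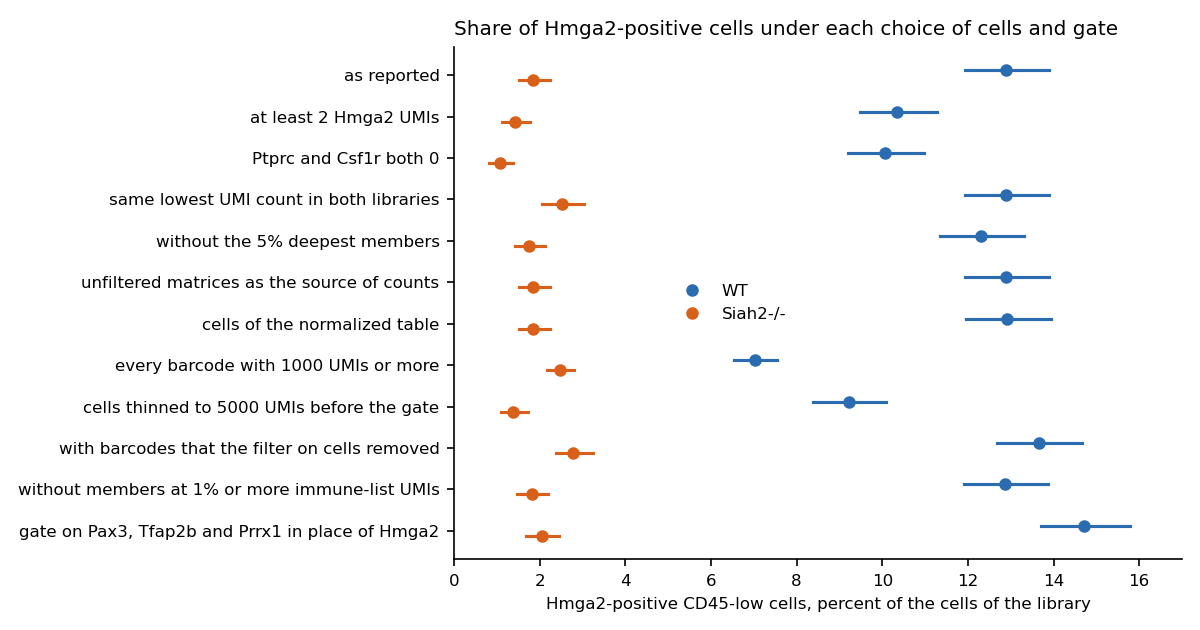
Share of Hmga2-positive CD45-low cells among the cells of each library, in percent with exact 95% intervals, under each choice of cells and gate. The WT share lies above the Siah2-/- share under every choice drawn, and the 2 shares come closest at 7.03% and 2.48%, when every barcode of 1000 UMIs or more is used.

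Members differed among themselves in their Hmga2 level. They were split at 1.04 and 2.41 Hmga2 UMIs per 10000 UMIs into a lowest, a middle and a highest group, which held 192, 187 and 204 WT and 37, 41 and 25 Siah2-/- cells. These groups are ranges of one measure and not cell types, and 20, 31 and 23 of their WT and 5, 10 and 3 of their Siah2-/- cells lay within 10% of a limit. The median UMI count of the highest group was 31539 in WT and 24958 in Siah2-/-, against 22403 and 27696 in the lowest. Depth thus went opposite ways in the libraries. Since a member needs at least 1 Hmga2 UMI, the shallowest cells could not fall into the lowest group. The median Hmga2 count of that group was 1 UMI in both libraries.

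The other marker genes rose along with Hmga2. Fosl1 was at 8.45, 31.6 and 173 CPM in the lowest, middle and highest WT group and at 9.21, 17.6 and 56.4 CPM in Siah2-/-. Tnfrsf12a was at 25.1, 76.7 and 327 CPM in WT and at 11.3, 18.6 and 120 CPM in Siah2-/-. Timp1 went from 157 to 369 CPM in WT and from 179 to 221 CPM in Siah2-/-, the smallest rise of the 3 as a ratio in each library.

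Over 3715 genes, 26 (0.7%) were at least 2-fold higher in the highest than in the lowest group in both libraries, and 45 (1.21%) were at least 2-fold lower. Ccnd1, cyclin D1 (chr7:144929931-144939925, minus strand), was at 781 against 206 CPM in WT and 472 against 145 CPM in Siah2-/-. Srm, spermidine synthase, was at 159 against 38 CPM and 78.6 against 19.4 CPM, and Tubb6, a beta tubulin, at 383 against 111 CPM and 176 against 56.3 CPM. Others among the 10 highest, by the smaller ratio and with no cell over 20% of the UMIs, were Cycs (cytochrome c), Tomm40 (a mitochondrial import channel), Vars (a tRNA synthetase), Ppa1, Prkg2, Rgs17 and AA467197.

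Fibroblast genes went the other way. Of 9 that could be compared, 8 were lower in the highest Hmga2 group in both libraries (1113 of all 3715 genes were) and 4 at least 2-fold (1.21% of all genes), with a median log2 ratio of -1.23 in WT and -0.97 in Siah2-/-. Col1a1 was at 43.2 against 131 CPM in WT and 44.4 against 154 CPM in Siah2-/-, and Dcn at 118 against 311 CPM and 197 against 707 CPM. Postn (periostin) was at 38.6 against 243 CPM and 66.7 against 265 CPM, with 1 cell holding 46.2% of its UMIs in a Siah2-/- group, which keeps it out of the ranking. Tsc22d1, a TGF-beta-stimulated transcription regulator, was at 350 against 1076 CPM and 414 against 1042 CPM, and Thbd, Dbp, Rgs2, Scara5, Edil3, Lpcat2 and Tcf7l1 were also among the 10 lowest by the same rule.

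Crest genes varied along the Hmga2 level in different ways. Tfap2b was at 121, 122 and 82.4 CPM from the lowest to the highest group in WT and at 106, 113 and 92.3 CPM in Siah2-/-. Pax3 was at 91.8, 69.6 and 44.9 CPM in WT and at 82.9, 77.2 and 75.2 CPM in Siah2-/-. Gfra2 was at 27.1, 22.7 and 47.3 CPM in WT and at 16.4, 33.2 and 47.9 CPM in Siah2-/-. Of 4 crest genes with enough UMIs to compare, 0 were 2-fold different in both libraries, near the 0.7% and 1.21% of all genes. The 6 mitotic (G2/M) genes compared were higher in the highest group in both libraries (1440 of all 3715 genes were), with a median log2 ratio of 0.87 and 1.72.

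**Figure D3:**
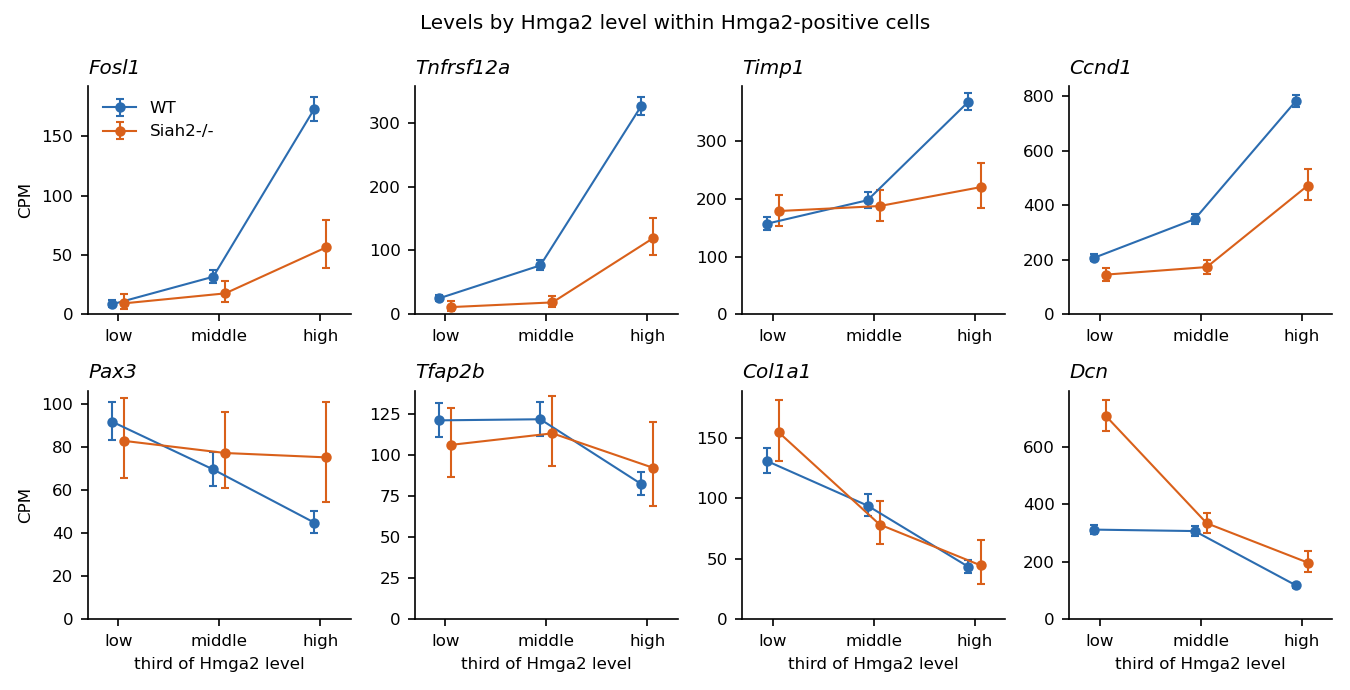
Levels in CPM, with exact 95% Poisson intervals, of marker, matrix and crest genes in the lowest, middle and highest Hmga2 group of the members of each library. Fosl1, Tnfrsf12a and Ccnd1 rise with the Hmga2 level in both libraries, while Dcn and Col1a1 fall.

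CD45-low cells without Hmga2 but with at least 3 UMIs of Dcn, Lum and Pdgfra together (82 WT and 15 Siah2-/- cells) were the closest other cells. They carried the same crest and mesenchymal factors, since 80 of 82 and 13 of 15 had at least 3 UMIs of Pax3, Tfap2b and Prrx1 together, as did 566 (97.1%) and 98 (95.1%) of the members. Of all CD45-low cells with that count of these factors, 100 WT (15%) and 16 Siah2-/- cells (14.0%) had no Hmga2 UMI. The fibroblast-like label of that gate therefore rests on matrix genes that the members share.

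Across 2343 genes, 8 (0.341%) were at least 2-fold higher in members than in that gate in both libraries, and 0 (0%) were at least 2-fold lower. Of the 8, Srsf7, a splicing factor, had no cell with over 20% of its UMIs in any group (210 against 84.0 CPM and 130 against 60.6 CPM), and in the other 7 (AA467197, Alyref, Ccl2, Ccl5, Cks2, Cxcl10 and Hmgb2, named after their values were seen) 1 cell held over 20% in at least 1 group. Short of 2-fold in at least 1 library, but next after Srsf7 among genes without such a cell, were Dek, a chromatin protein (137 against 69.9 CPM and 85.1 against 49.1 CPM), and Lgals3, galectin-3 (430 against 249 CPM and 658 against 378 CPM). After them came Card19, Gadd45g, Lsm3, Plec, Cnih4, Snrpd1 and Sdc4, also short of 2-fold in at least 1 library. On the lower side Tsc22d1 led, at 747 against 1399 CPM and 833 against 1530 CPM, followed by Mpst, Igsf3, Colec12, Scara5, Akap13, Fcgrt, Fgfrl1, Tmem176b and Pid1. The difference of Tsc22d1 was -0.91 and -0.88 on the log2 scale, short of 2-fold. With the barcodes that the filter removed, 46 genes were at least 2-fold higher and 5 lower of 2536, and with a mean of per-cell CPM 5 were higher and 1 lower. The Siah2-/- side of this comparison rested on 15 cells.

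Between the libraries, 8171 genes had at least 20 UMIs expected in each (from the pooled level) and were compared by the ratio of Siah2-/- to WT members. At least 2-fold higher were 223 genes (2.73%) and at least 2-fold lower 276 (3.38%). Clspn and Aunip, with 0 UMIs in Siah2-/- members, were counted as lower by their interval, and the median log2 ratio over the other genes was -0.01. With the barcodes that the filter removed, 295 were higher and 107 lower of 9550, without the 5% deepest members 168 were lower, and with 0 Ptprc and 0 Csf1r UMIs 137 were higher. The count of lower genes thus depended on which barcodes were kept.

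Among genes with no cell holding over 20% of their UMIs, the highest ratio was that of Ifitm1, an interferon-induced membrane protein, at 14.2 CPM in WT and 103 CPM in Siah2-/- (log2 2.86, 2.60 to 3.13). Free RNA from lysed cells may add to it, which was not tested. The members' 23 macrophage and T or NK genes stood at 2.33% of their empty-droplet level in WT and 5.72% in Siah2-/-, and at those shares the empty-droplet profile alone would give 11.2 and 86.9 CPM of Ifitm1. For Rgs1 (15.7 and 75.4 CPM) it would give 13.3 and 63.7 CPM, for Srgn (16.0 and 75.4 CPM) 18.9 and 65.8 CPM, and for Fcgr3 (8.99 and 38.3 CPM) 7.81 and 27.0 CPM. The level of these 4 genes lay near this estimate, less so for Fcgr3 in Siah2-/-. The estimate counts all RNA of the 23 genes in members as free RNA. Leukocyte genes outside that list stood at other shares of their empty-droplet level. In WT members S100a8 was lower (1.05 against 160 CPM in empty droplets) and Ccr7 higher (5.78 against 46.1 CPM). The part of free RNA in these 4 genes was not tested.

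For the other 6 of these 10 genes the same estimate was far lower. The complement genes C4b (7.42 to 39.8 CPM, log2 2.43, 2.03 to 2.82), C1s1 (13.5 to 69.6 CPM, 2.36, 2.07 to 2.66) and C1ra (12.5 to 54.2 CPM) had an estimate of at most 0.541 CPM. Ndrg1, a hypoxia-induced gene, went from 12.1 to 54.5 CPM (2.18, 1.85 to 2.5), Gbp8, an interferon-induced GTPase, from 18.2 to 77.8 CPM (2.09, 1.82 to 2.36) and Ms4a4d from 6.83 to 30.2 CPM. The estimate takes the empty droplets as 1 profile, and the part of free RNA in these differences was not tested further.

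Genes of the interferon gamma response were higher as a list. Of 15 compared, 10 were at least 2-fold higher in Siah2-/- members, against 2.73% of all genes. All 15 were above 0, against 3952 of all 8171 genes, and the median log2 ratio was 1.25. Cxcl9, a chemokine for activated T cells, went from 16.7 to 75.8 CPM (2.18, 1.90 to 2.45), Gbp5 from 12.2 to 46.0 CPM (1.91, 1.57 to 2.25) and Gbp2 from 271 to 728 CPM (1.43, 1.35 to 1.5). In Siah2-/-, 1 cell held 33.7% of the Cxcl9 UMIs and 1 cell 23.5% of the Gbp5 UMIs, against 12.5% for Gbp2. The immunity-related GTPase genes Igtp and Iigp1 went from 224 to 557 CPM and from 317 to 783 CPM. Irf1, an early interferon-induced transcription factor, went from 74.0 to 116 CPM and was under 2-fold.

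The promoters of the 3 list members with the largest ratios that hold an interferon-stimulated response motif are shown, since the list is defined by interferon induction. The motif searched was GAAANNGAAA on both strands of the 250 bases before the transcript start (RefSeq, GRCm38.p6). Each line gives 100 bases on the gene's strand, with the motif in capitals, which reads as its reverse complement where it lies on the other strand. The windows are chr3:142496724-142496823 for Gbp5, chr3:142620559-142620658 for Gbp2 and chr11:58199456-58199555 for Igtp, all of plus strand genes.
Gbp5: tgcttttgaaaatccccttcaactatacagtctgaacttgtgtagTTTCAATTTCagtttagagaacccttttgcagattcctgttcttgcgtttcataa
Gbp2: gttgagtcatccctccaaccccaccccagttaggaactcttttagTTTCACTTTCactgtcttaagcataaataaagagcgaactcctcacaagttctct
Igtp: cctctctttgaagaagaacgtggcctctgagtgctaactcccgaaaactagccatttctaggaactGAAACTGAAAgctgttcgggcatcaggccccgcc

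Of 13 list members with a promoter in the table, 8 held GAAANNGAAA (Cxcl10, Gbp2, Gbp3, Gbp5, Gbp7, Igtp, Irgm1 and Socs1), against 3.46% of 27025 gene symbols and 2.98% of 32851 promoter windows. A second motif, TTCNNNGAA, was in 6 of 13, against 8.13% of symbols and 7.02% of windows. Of the type I interferon list, 6 of 10 held GAAANNGAAA, and of the class I antigen presentation list 1 of 11 did. A match is a run of letters and says nothing of binding in these cells.

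The class I antigen presentation genes were higher by less. Of 13, 12 were above 0, against 3952 of all 8171 genes, with a median log2 ratio of 0.73. At least 2-fold higher was 1 (Nlrc5, their transactivator), against 2.73% of all genes. B2m, the light chain, went from 6562 to 11105 CPM (0.76, 0.74 to 0.78), H2-K1 from 1160 to 2167 CPM and H2-D1 from 2342 to 4573 CPM. Per cell, the summed list had a 10th percentile of 4405, a median of 12591 and a 90th percentile of 22201 CPM in WT and 13568, 20212 and 30652 CPM in Siah2-/-. The WT median thus lay below the Siah2-/- 10th percentile. Type I interferon genes had a median of 0.61, with 2 of 12 at least 2-fold higher (Ifi27l2a and Stat2), beside the same 2.73%.

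Leukocyte RNA moved in the same direction as these lists. The 12 macrophage genes summed to 391 and 1102 CPM in members, against 43403 and 41919 CPM in the macrophage gate, and the 12 T and NK genes to 83.0 and 252 CPM. Of the members, 1 in WT and 2 in Siah2-/- had at least 1% of their UMIs in these genes. All 10 macrophage and 5 T or NK genes compared were at least 2-fold higher in Siah2-/- members, against 2.73% of all genes. With the empty-droplet profile subtracted, the median log2 ratio of the interferon gamma list was 1.21 and that of the class I list 0.74. In members with 0 Ptprc and 0 Csf1r UMIs, they were 0.86 and 0.69.

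The size of the interferon gamma difference varied between the groups of cells. The median of the interferon gamma list was 0.25 in the macrophage gate, 0.52 in cells with T cell counts and -0.03 in the fibroblast-like gate, where 10 genes could be compared. Summed per cell, that list in the median cell went from 1084 to 2687 CPM in members and from 2420 to 3518 CPM in the macrophage gate. It went from 1434 to 1884 CPM in cells with T cell counts and from 1201 to 1385 CPM in the fibroblast-like gate. The class I list in the fibroblast-like gate had a median log2 ratio of 0.50, and its median cell went from 12973 CPM in WT to 19325 CPM in Siah2-/-. Within the members the interferon gamma median was 0.80, 0.65 and 1.76 in the lowest, middle and highest Hmga2 group. The type I interferon median was 0.16, 0.41 and 1.38 in the same order. None of these differences between groups was tested.

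Cell cycle genes were lower in the Siah2-/- members as the table holds them. Of 19 S phase genes, 15 were at least 2-fold lower, against 3.38% of all genes, with a median log2 ratio of -1.66, and of 20 G2/M genes 18 were, with a median of -1.51. Mcm6, a subunit of the replicative helicase, went from 51.9 to 14.3 CPM (-1.86, -2.38 to -1.38), and Slbp, the histone stem-loop binding protein, from 109 to 66.1 CPM (-0.71). Of the G2/M genes, Birc5, survivin, went from 149 to 45.3 CPM (-1.72) and Hmgb2, a chromatin protein, from 377 to 133 CPM (-1.5, -1.66 to -1.34). Among genes with a UMI in both libraries and no cell holding over 20% of them, the 10 lowest ratios included Hist1h2ap, a replication-dependent histone (202 to 19.3 CPM, -3.39), Uhrf1, which maintains DNA methylation (31.2 to 4.26 CPM, -2.88), and Tk1, thymidine kinase (50.0 to 8.12 CPM, -2.62). The others were 2810417H13Rik (the PCNA-associated factor), Nrm, Apitd1, Cdca7, Gchfr, Tcf19 and Cenpm.

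These values depended on the barcodes that the filter on cells removed, by number of genes or mitochondrial share. With them, the medians were -0.88 for S phase and -0.85 for G2/M, and the log2 ratio of Hist1h2ap was -0.04, that of Tk1 -0.88 and that of Uhrf1 -1.22. The median member had 273 and 213 CPM of S phase and 279 and 210 CPM of G2/M RNA, and the libraries stood further apart at the 90th percentile, with 4926 and 1165 CPM of G2/M RNA. The macrophage gate had medians of -0.96 and -0.99 and the T cell gate of -0.83 and -1.19. In the fibroblast-like gate, where too few genes passed for a list ratio, the median cell had 182 and 258 CPM of S phase and 147 and 193 CPM of G2/M RNA, higher in Siah2-/-.

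The marker genes showed the same dependence. Their log2 ratios were -1.85 (-2.25 to -1.48) for Fosl1, -2.10 (-2.40 to -1.81) for Tnfrsf12a and -0.42 (-0.56 to -0.29) for Timp1. With the removed barcodes they were -0.82, -0.84 and -0.07. Fosl1 and Tnfrsf12a, but not Timp1, were past 2-fold as the table holds them, and with those barcodes none of the 3 was. Hmga2, which chose the cells, was at 278 CPM in WT and 186 CPM in Siah2-/-, as a description only.

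For the lineage lists, 0 of 6 crest, 11 mesenchymal and 5 undifferentiated melanoma genes were 2-fold different, which is near the shares over all genes (2.73% and 3.38%), with medians of 0.39, 0.24 and 0.09. The interval lay above 0 for 4 of the 6 crest and 7 of the 11 mesenchymal genes, against 1463 of all 8171 genes. Of 12 fibroblast genes, 1 was at least 2-fold higher (Thy1, at 6.76 and 15.1 CPM, against 287 and 399 CPM in empty droplets), and the median was 0.39.

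Hypoxia and glycolysis genes were higher, with 7 of 17 at least 2-fold, against 2.73% of all genes, and a median of 0.73. Car9, carbonic anhydrase 9, went from 7.42 to 36.0 CPM (2.28, 1.87 to 2.69, with 31.2% of its Siah2-/- UMIs in 1 cell), Pgk1 from 102 to 304 CPM (1.58, 1.45 to 1.70) and Hk2 from 19.4 to 57.6 CPM (1.57, 1.28 to 1.86). The macrophage gate had a median of 0.72 for the same list.

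MAPK targets and secreted factors went both ways. The values of single genes here are for the cells of the table, without the barcodes that the filter removed. Of 16 MAPK targets, 1 was at least 2-fold higher (Ier3, against 2.73% of all genes) and 3 were lower (against 3.38%), namely Ccnd1 (487 to 230 CPM), Etv4 (54.1 to 22.0 CPM) and Myc (24.4 to 11.2 CPM), with a median of 0.14. Of 19 secreted factors, 3 were at least 2-fold higher and 2 lower, beside the same 2.73% and 3.38%. The lower ones were the EGF receptor ligands Hbegf (30.4 to 4.64 CPM, -2.71, -3.67 to -1.89) and Areg (13.8 to 2.71 CPM, -2.35, -3.69 to -1.29), with 12 and 7 UMIs in Siah2-/- members, of which 1 cell held 41.7% and 42.9%. The higher ones were Igf1, Vegfa and Cxcl2, and for Cxcl2 (2.23 to 42.6 CPM) free RNA alone would give 3.31 and 24.5 CPM and 1 cell held 32.7% of its Siah2-/- UMIs.

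**Figure D4:**
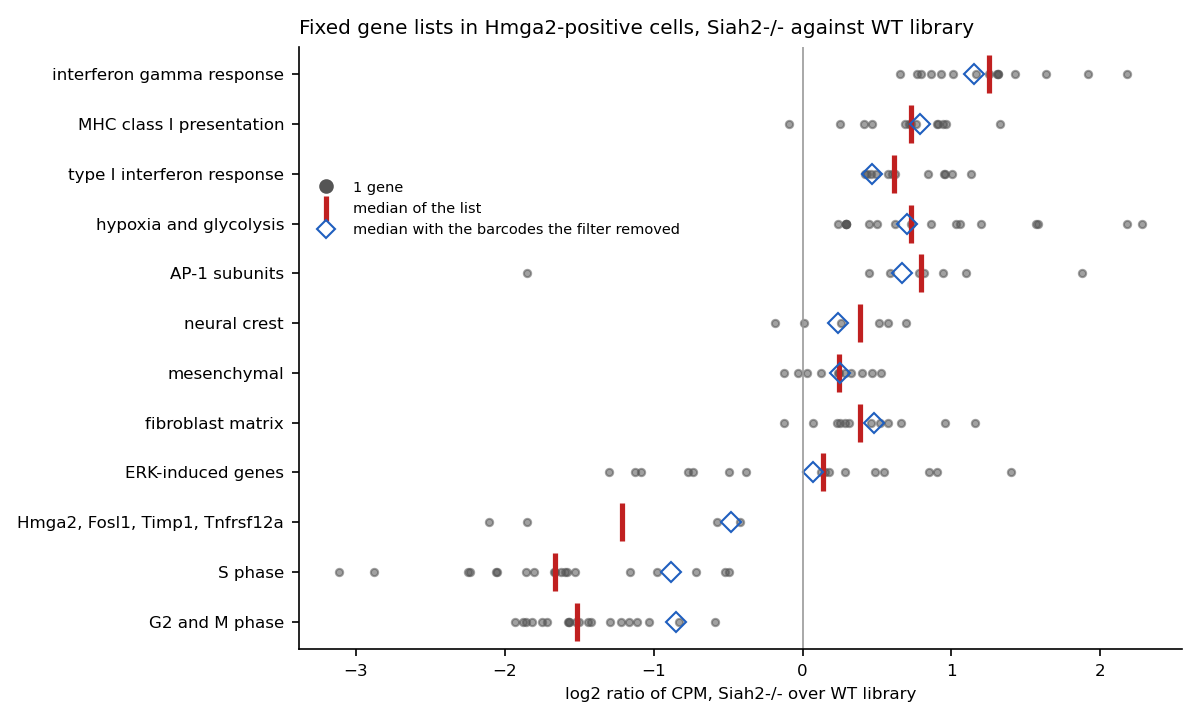
Log2 ratio of CPM in Siah2-/- over WT members for the genes of each list (points; MAPK targets are named ERK-induced genes), their median (bar), and the median with the barcodes that the filter on cells removed (diamond). Interferon gamma genes have a median of 1.25, while the S phase and G2/M medians of -1.66 and -1.51 move to -0.88 and -0.85 with those barcodes.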

How the data were processed

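The processed files of 2 droplet libraries, 1 of WT and 1 of Siah2-/- hosts, were used. The deposited counts are UMI counts per gene and barcode that the authors made with Cell Ranger (version not given in the sources used here) on mm10/GRCm38. They kept barcodes by genes per cell (bottom and top quantiles removed) and by at most 10% mitochondrial transcripts, and deposited counts of 14654 genes for 10100 cells. A deposited natural log table of normalized values served only to check that the members are in it. That filter was the authors' only stated step against doublets, and no doublet caller was run here.

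The members, gene lists and groups were chosen with earlier results of these data known. UMIs of members were summed per library and divided by their total (CPM), with exact Poisson intervals. Ratios between libraries have exact conditional binomial intervals. Shares have exact Clopper-Pearson intervals. With 1 library per genotype no p-value was computed. Python 3.11.15 with numpy 2.4.6, scipy 1.17.1 and pandas 2.3.3 was used. The code recovered known ratios of genes with high counts in Poisson counts simulated per library. That simulation held no spread between cells. Empty droplets were barcodes of 1 to 100 UMIs. The depth was 15236586 WT and 2585102 Siah2-/- UMIs over the members.

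Named genes were those of the fixed lists with the highest CPM or a defining role, and the 10 highest and 10 lowest ratios with at least 20 expected UMIs per library and no cell above 20% of the UMIs. For the fibroblast-like gate they were ranked by the smaller ratio of both libraries. The split by Hmga2 level, the barcodes that the filter removed, the gate on Pax3, Tfap2b and Prrx1, and the removal of members with at least 1% leukocyte UMIs were added after the data were seen, and values of single genes with a large share in 1 cell were named after they were seen. Counts of genes past 2-fold in the fixed lists use the same limits. Promoter windows came from RefSeq (GRCm38.p6). Some genes of the lists are not reported here.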

Additional observations from a re-analysis of the deposited data

Results flagged for a closer look

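Cells that met the rule for members were found among the barcodes that the authors' filter left out, in 10.4% of all such WT barcodes and 37.2% of all such Siah2-/- barcodes. They drew attention because they lie outside the table the comparisons use, and their part differs between the libraries.

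RNA of Mlana, Pmel, Tyrp1 and Dct was found outside cells. It summed to 3051 CPM in WT barcodes of 10 to 19 UMIs and to 4939 CPM in Siah2-/- barcodes of 20 to 49 UMIs, against 0.555 and 1.32 CPM in the cells of the table. The highest count in 1 barcode of these ranges was 5 and 9 UMIs. Empty droplets therefore do not hold 1 uniform profile, which limits the values that rest on it. The source of this RNA was not tested.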

How the results depend on the processing

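No paired analysis was possible because each genotype has 1 library, and for the same reason leaving out a replicate was not run. Genotype cannot be told apart from library, and Siah2-/- values rest on 103 members. No value changed its sign among those called, but the balance of calls between the libraries turned, from 223 higher and 276 lower genes to 295 higher and 107 lower with the removed barcodes. Over single genes and lists, 631 values stayed within their interval or limit and 56 moved, and over the main results 189 stayed and 48 moved.

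The WT and Siah2-/- shares were 10.3% and 1.42% with at least 2 Hmga2 UMIs, 10.1% and 1.08% with 0 Ptprc and Csf1r UMIs (log2 ratio -3.22), 9.22% and 1.38% after thinning to 5000 UMIs, and 7.03% and 2.48% from 1000 UMIs (-1.5). The same lowest UMI count gave 2.51% in Siah2-/- (-2.36) and the removed barcodes 2.79% (-2.29). The gate on Pax3, Tfap2b and Prrx1 gave 14.7% in WT. The share with a crest factor was 61.6% and 64.1% after thinning, and 100% in Siah2-/- with at least 2 Hmga2 UMIs.

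Genes at least 2-fold higher in Siah2-/- numbered 137 with 0 Ptprc and Csf1r UMIs, 504 with at least 5 expected UMIs and 74 with at least 100. Lower genes numbered 532 and 71 under the latter limits, 168 without the 5% deepest members, 181 as a mean of per-cell CPM and 107 with the removed barcodes. List medians moved as follows, where the markers include Hmga2, which chose the cells, and are a description. Without the deepest members the markers were at -0.94, class I at 0.60 and type I interferon at 0.41. As a mean of per-cell CPM the markers were at -0.86 and G2/M at -1.02. With 0 Ptprc and Csf1r UMIs interferon gamma was at 0.86 and type I at 0.48. With the removed barcodes the markers were at -0.48, S phase at -0.88, G2/M at -0.85 and type I at 0.46.

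Against the fibroblast-like gate, genes higher in both libraries numbered 5 with 0 Ptprc and Csf1r UMIs, as a mean of per-cell CPM and with that gate at 10 UMIs, and 46 with the removed barcodes. Lower genes numbered 5 with at least 2 Hmga2 UMIs, 2 with the gate at 10 UMIs, 5 with the removed barcodes, and 1 with 0 Ptprc and Csf1r UMIs, the same lowest count, without the deepest members and as a mean of per-cell CPM. The cause of these changes was not tested beyond the construction of each alternative.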

Other observations

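Matrix-remodelling genes of the members included both proteases and inhibitors. Mmp14, a membrane-bound collagenase, was at 152 CPM in WT and 237 CPM in Siah2-/- members, Mmp3, stromelysin, at 67.7 and 57.3 CPM and Mmp9, a gelatinase, at 51.7 and 39.8 CPM. Timp2 was at 393 and 420 CPM and Timp3 at 214 and 333 CPM. Plat, the tissue plasminogen activator, was at 133 and 120 CPM. Over the 11 genes of the list compared between the libraries, the median log2 ratio of Siah2-/- over WT was 0.10.

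Immediate early genes of the AP-1 family were also present. Jun was at 1151 and 1729 CPM and Fos at 585 and 1251 CPM, and of 8 genes 2 were at least 2-fold higher (Fos and Atf3, against 2.73% of all genes) and 1 was lower (Fosl1, against 3.38%; its log2 ratio was -0.82 with the barcodes that the filter removed). Fos and Atf3 were also higher in Siah2-/- in the macrophage gate (1286 and 2238 CPM of Fos, 110 and 225 CPM of Atf3). In the T cell gate Fos was at 134 and 385 CPM and Atf3 at 3.98 and 20.6 CPM. Enzymatic dissociation is known to induce immediate early genes, and its part was not tested.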
